A study of Mus musculus with 6 samples.

Results

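The respiratory chain of the inner mitochondrial membrane was followed through the mRNAs of its subunits, taken from both genomes that encode it. Members were chosen by gene symbol: nuclear genes named Ndufa, Ndufb, Ndufc, Ndufs, Ndufv or Ndufab with a number, Sdha to Sdhd, the Uqcr genes and Cyc1, the Cox4 to Cox8 isoforms, and the Atp5 genes, together with the 13 protein genes of mitochondrial DNA. This rule took 98 of the 22599 genes in the table. Of these, 85 were nuclear, with 37 for complex I, 4 for complex II, 9 for complex III, 18 for complex IV and 17 for complex V (ATP synthase). Ndufa4 was counted with complex IV, of which it is a subunit. The 13 mitochondrial genes held 7 subunits of complex I, 1 of complex III, 3 of complex IV and 2 of complex V.

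Bulk RNA sequencing covered 6 mouse liver libraries. The first 3 were labelled as NcoR1 knockdown and came from NcoR1ΔHep mice, a name usually read as loss of NcoR1 in hepatocytes. The 3 set against them were labelled wild type and came from NcoR1fl/fl (flox) mice, which carry the floxed alleles. All 6 titles gave 0 h, while the treatment entry of all 6 named ischemia-reperfusion of the liver, and all mice ate chow. The driver of the deletion, the age, the sex, any pooling of mice and whether the 0 h livers had surgery were not given. Nothing in the labels tied each library to a mouse of its own, and the spread behind the p-values may therefore be in part technical.

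Complexes I to IV pass electrons from NADH and succinate to oxygen, and complexes I, III and IV pump protons as they do so; ATP synthase lets the protons back and makes ATP. Complex II has no mitochondrially encoded subunit, whereas the others are built from subunits of both genomes. In liver this chain takes up the electrons of fatty acid oxidation and supplies the ATP for urea and glucose synthesis. The mitochondrial genes are transcribed as long strands that are cut into single mRNAs, so their levels after cutting depend also on each mRNA's stability. NCoR1 is a corepressor that recruits histone deacetylase to nuclear receptors, and in mouse muscle its loss is known to raise genes of oxidative metabolism.

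Parts of the mitochondrial mRNAs cannot be told from nuclear copies of mitochondrial DNA, and the sequences show how close the copies are. In the GENCODE M21 annotation of GRCm38, 7 of the 13 genes had an annotated copy within chr1:24611535-24616197. COX2 (chrM:7013-7696, heavy strand, a single-exon gene) matched the copy Gm28661 (chr1:24614885-24615565) with 0 of 681 aligned bases different. ATP6 matched Gm10925 with 0 of 678 different, and COX3 matched Gm28437 with 0 of 783 different. The first 60 bases of these genes are the same letters on both chromosomes:
COX2 and Gm28661: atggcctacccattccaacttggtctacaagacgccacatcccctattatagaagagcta
ATP6 and Gm10925: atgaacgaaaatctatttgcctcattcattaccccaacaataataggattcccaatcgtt
COX3 and Gm28437: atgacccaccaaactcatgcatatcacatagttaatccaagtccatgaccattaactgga

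COX1 (chrM:5328-6872, heavy strand) matched Gm29216 (chr1:24615706-24616197), a copy of its last part, with 6 of 492 aligned bases different. All 6 lie at the edge of the aligned stretch, before base 1067 of COX1. From base 1067 to base 1545 the letters are the same. COX1 also shared 411 of its 1496 words of 50 bases with Gm13340 on chromosome 2 (chr2:22588103-22589647), spread from base 1 to base 1457 of the gene, against 430 with Gm29216. The stretch from base 1054 to base 1113 of COX1 holds all 6 differences from Gm29216, shown in capitals:
COX1: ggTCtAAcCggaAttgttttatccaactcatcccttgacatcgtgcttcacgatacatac
Gm29216: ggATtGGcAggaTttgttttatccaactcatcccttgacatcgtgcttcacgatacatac
Neighbouring genes also share letters with each other. ATP8 and ATP6 overlap by 43 bases on the same strand, at chrM:7927-7969:
ATP8 and ATP6: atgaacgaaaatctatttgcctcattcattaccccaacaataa
ND4L and ND4 overlap by 7 bases and ATP6 and COX3 by 1. ND5 (heavy strand) and ND6 (light strand) overlap by 14 bases, and the strand setting of the counting is not given in the sources used here.

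On the nuclear side, promoters were searched for the motifs of NRF1 (CGCNTGCG, a core shared by longer forms) and of the ETS family that includes GABP (CCGGAAG), both known regulators of respiratory genes, on both strands. RefSeq windows on GRCm38.p6 from 250 bases before to 50 bases after the start were found for 70 of the 85 nuclear members, 75 windows in all. The NRF1 motif stood in 29 of the 75 windows (38.7%), against 2697 of all 32851 windows (8.21%). The ETS motif stood in 17 of the 75 (22.7%), against 2910 of all windows (8.86%). Both stood in 8 of the 75 (10.7%), against 492 of all windows (1.498%), and in those 8 the matches did not overlap. A match is a description of letters in the window, not a site of binding. The comparison took every window, not matched to the members in base composition or expression. The part of base composition in these shares was not tested. Of the 8 promoters with both motifs, those of Cox6a1 (chr5:115348909-115349208, minus strand) and Atp5k (chr5:108434350-108434649, minus strand), a complex IV and an ATP synthase subunit, are shown with the motifs in capitals:
Cox6a1: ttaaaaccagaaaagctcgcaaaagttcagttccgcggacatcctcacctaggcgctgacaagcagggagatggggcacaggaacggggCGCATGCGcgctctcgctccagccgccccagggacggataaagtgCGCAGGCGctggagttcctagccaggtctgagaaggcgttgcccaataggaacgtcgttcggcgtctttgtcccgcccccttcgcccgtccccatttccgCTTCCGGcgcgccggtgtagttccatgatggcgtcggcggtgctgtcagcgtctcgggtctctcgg
Atp5k: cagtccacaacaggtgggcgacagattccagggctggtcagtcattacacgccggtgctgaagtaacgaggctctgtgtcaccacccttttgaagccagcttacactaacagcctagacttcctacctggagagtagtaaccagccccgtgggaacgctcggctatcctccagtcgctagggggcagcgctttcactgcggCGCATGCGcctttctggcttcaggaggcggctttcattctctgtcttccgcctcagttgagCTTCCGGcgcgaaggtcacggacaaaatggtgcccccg

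Library totals ran from 36975231 to 38470468 counts, and 16620 to 17770 genes had at least 1 count. The labelled target, Ncor1, had 5.34, 6.63 and 4.93 FPKM in the NcoR1ΔHep libraries, against 6.78, 6.70 and 7.72 FPKM in the flox libraries, a log2 fold change of -0.31 (SE 0.21), which did not pass edgeR's quasi-likelihood test (adjusted p = 0.931). All NcoR1ΔHep values lay below all flox values, and NcoR1ΔHep 3 was the lowest. The library NcoR1ΔHep 1 stood apart: it had 17138 counts of Xist, against 6 to 18 in the other 5 libraries, and 0.534 CPM (counts scaled to the library total) summed over 4 Y-linked genes, against 113 to 271 CPM in the others. This is the pattern of a female library among male ones, although the labels did not give the sex. Values without NcoR1ΔHep 1 stand beside most log2 fold changes and medians below. The 8 hepatocyte markers summed to 104896 to 106449 CPM in NcoR1ΔHep and 96896 to 115360 CPM in flox libraries. All 8 markers of sinusoidal endothelium had negative log2 fold changes, with a median of -0.72 (-1.03 without NcoR1ΔHep 1) and sums of 96.1 to 219 CPM in NcoR1ΔHep and 145 to 409.6 CPM in flox libraries. Stellate cell markers summed to 281 to 352 CPM in NcoR1ΔHep and 213 to 275 CPM in flox libraries, and Kupffer cell markers to 169 to 428 CPM in NcoR1ΔHep and 269.6 to 410.2 CPM in flox libraries. Cholangiocyte markers summed to 61.1, 170 and 37.6 CPM in NcoR1ΔHep and 44.4, 43.0 and 56.6 CPM in flox libraries, with NcoR1ΔHep 2 the highest. Erythroid markers summed to 132 to 227 CPM in NcoR1ΔHep and 222 to 308 CPM in flox libraries. Neutrophil and lymphocyte markers summed to at most 10.4 and 5.58 CPM in a library. Striated muscle markers summed to at most 0.268 CPM in NcoR1ΔHep and 0.132 CPM in flox libraries, and Mb was at 0. Of 4 brown fat markers, Ucp1 had 0 counts in all 6 libraries, but the 4 summed to 19.9, 161 and 63.6 CPM in NcoR1ΔHep and 433, 93.4 and 256 CPM in flox libraries. Most of this was Elovl3 and, in flox 1, Cidea (208 CPM there, against 0 to 7.26 CPM in the other 5 libraries), and Ppargc1b, described below, is the fourth. Of the white fat markers, Adipoq and Plin1 had at most 14 and 1 counts in a library, while Cfd had 0.560, 0 and 10.6 CPM in NcoR1ΔHep and 105.5, 0.312 and 1.05 CPM in flox libraries. Flox 1 was thus the highest library for Cidea and Cfd. The part of these differences in the results below was not tested, and in bulk tissue fewer cells of a type and less RNA per cell cannot be told apart.

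Respiratory chain mRNAs did not pass the test as single genes. Of the 98 members, 93 held enough counts to be tested and 80 of those 93 had a log2 fold change above 0, where 53.5% of all 13205 tested genes did. With edgeR's quasi-likelihood test and Benjamini-Hochberg adjustment, 0 of the 93 passed an adjusted p of 0.05, and so did 0 of all 13205 genes (0%). At an unadjusted p under 0.05, 0 members stood below the threshold, against 443 of all genes (3.35%). DESeq2 called 0 members and 5 of 20289 genes (0.0246%), and 1 member, Ndufb1, had an unadjusted p under 0.05 (3.02% of all genes). The members' median log2 fold change was 0.27, against 0.031 over all genes tested. Without NcoR1ΔHep 1 the members' median was 0.077, with 69 of 93 above 0, against 0.024 over all genes, of which 53.6% were above 0. Without that library 0 members had an unadjusted p under 0.05 (2.43% of all genes). In FPKM, 4 of the 93 members did not overlap between the groups (4.30%), against 7.56% of all tested genes. These were Ndufb1, higher in NcoR1ΔHep (2.61% of all tested genes were), and Ndufs1, Sdha and Uqcrc2, lower in NcoR1ΔHep (4.95% of all tested genes were). The set depended on the scaling. In TMM-scaled CPM, the scale of the edgeR fit, Ndufb1 overlapped and Ndufs1, Sdha and Uqcrc2 did not. Ndufb4, Ndufb8, Cox7c and Atp5c1 (higher in NcoR1ΔHep) and Atp5b (lower) did not overlap on that scale either. The share of all genes on that scale is not given here.

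**Figure D1:**
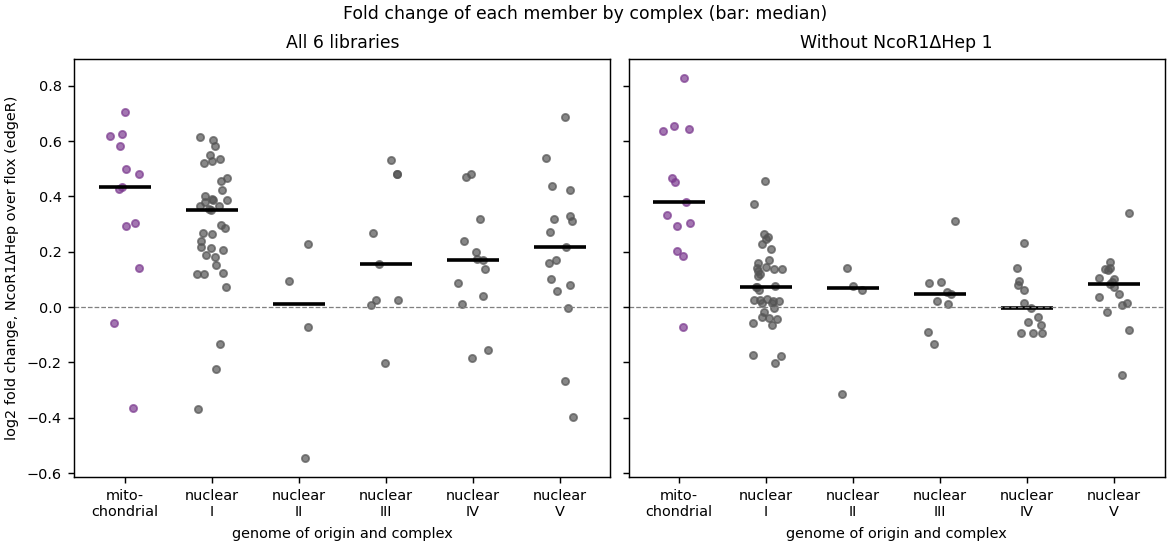
Each point is 1 tested member and its log2 fold change of NcoR1ΔHep over flox from edgeR, grouped on the x axis by genome and complex, with a bar at the group's median. The left panel uses all 6 libraries, with medians of 0.44 for mitochondrial genes and 0.35 for nuclear complex I, and the right panel leaves out NcoR1ΔHep 1, where they are 0.38 and 0.071.

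Complex I, which oxidises NADH, had 34 of its 37 nuclear members above 0, with a median log2 fold change of 0.35. Its 30 accessory subunits, which surround the catalytic core, were all above 0 (median 0.36), while 4 of the 7 core subunits were (median 0.12). Without NcoR1ΔHep 1 the median of the 37 was 0.071, with 23 of 30 accessory (median 0.072) and 4 of 7 core subunits (median 0.013) above 0. Ndufb1, an accessory subunit of the membrane arm, had 353, 194 and 263 FPKM in NcoR1ΔHep libraries, against 161, 189 and 186 FPKM in flox libraries. The groups did not overlap in FPKM, where NcoR1ΔHep 2 lay close to flox 2, but overlapped in TMM-scaled CPM. The log2 fold change of 0.60 (SE 0.26) had an adjusted p of 0.931 with edgeR. Ndufb1 had the smallest unadjusted p of all members (0.0520), and its log2 fold change was 0.46 (SE 0.26) without NcoR1ΔHep 1. Ndufb4, another membrane-arm accessory subunit, had 254, 126 and 116 FPKM in NcoR1ΔHep and 102, 102 and 117 FPKM in flox libraries. Here 1 library, NcoR1ΔHep 1, lay far above the other 5. Those 5 overlapped between the groups in FPKM but not in TMM-scaled CPM. The log2 fold change (0.61, SE 0.29) became 0.26 without NcoR1ΔHep 1.

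Ndufa6 and Ndufa3, the complex I members with the highest mean FPKM, showed the same 1 high library. Ndufa6 had 514, 234 and 185 FPKM in NcoR1ΔHep and 234, 192 and 273 FPKM in flox libraries. Ndufa3 had 474, 229.5 and 197 FPKM in NcoR1ΔHep and 203, 174 and 245 FPKM in flox libraries. Their log2 fold changes were 0.40 (SE 0.35) and 0.52 (SE 0.32), and -0.066 and 0.13 in its absence. Among core subunits the direction differed. Ndufs1, the large subunit that carries iron-sulfur clusters, had 22.9, 32.9 and 29.4 FPKM in NcoR1ΔHep and 43.3, 36.7 and 32.9 FPKM in flox libraries. The groups just did not overlap, with NcoR1ΔHep 2 and flox 3 nearly equal and NcoR1ΔHep 1 the lowest, and the log2 fold change of -0.37 (SE 0.23, edgeR adjusted p = 0.931) was -0.18 without that library. Ndufs7, the core subunit next to the quinone site, had 70.8, 35.1 and 29.9 FPKM in NcoR1ΔHep and 36.4, 28.9 and 37.8 FPKM in flox libraries, with NcoR1ΔHep 1 the highest of all 6. The ratio of Ndufs7 to Ndufs1 FPKM was 3.09, 1.07 and 1.02 in NcoR1ΔHep and 0.841, 0.787 and 1.15 in flox libraries, with NcoR1ΔHep 1 far above the other 5 libraries.

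Complex II, succinate dehydrogenase, which also works in the TCA cycle, had 2 of 4 members above 0 and a median log2 fold change of 0.011, or 0.070 with 3 of 4 above 0 without NcoR1ΔHep 1. Sdha, its flavin-bearing catalytic subunit, had 96.3, 157 and 137 FPKM in NcoR1ΔHep and 231, 191 and 165 FPKM in flox libraries. All 3 NcoR1ΔHep values lay below all flox values, and the lowest was again NcoR1ΔHep 1. The log2 fold change of -0.54 (SE 0.27) did not pass edgeR (unadjusted p = 0.0816, adjusted p = 0.931), and it was -0.31 (SE 0.21) without NcoR1ΔHep 1. Sdhb, the iron-sulfur subunit, had 262, 177 and 163 FPKM in NcoR1ΔHep and 183, 166 and 167 FPKM in flox libraries, and the groups overlapped. The Sdhb to Sdha ratio was 2.72, 1.13 and 1.19 in NcoR1ΔHep and 0.792, 0.871 and 1.01 in flox libraries. These ratios did not overlap, although without NcoR1ΔHep 1 the nearest values of the groups were 1.13 and 1.01. Sdhb (1079 bases) is shorter than Sdha (2859 bases), and the part of the length gradients described below in this ratio was not tested.

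Complex III, which passes electrons from ubiquinol to cytochrome c, had 8 of 9 members above 0 and a median of 0.15, which was 0.047 without NcoR1ΔHep 1. Uqcrb, which binds ubiquinone, had 465, 208 and 368 FPKM in NcoR1ΔHep and 234, 280.3 and 238 FPKM in flox libraries. It was high in NcoR1ΔHep 1 and 3 and lowest of all in NcoR1ΔHep 2, and its log2 fold change (0.48, SE 0.31) became 0.31 without NcoR1ΔHep 1. Uqcrq, a small supernumerary subunit, had 347, 146 and 132 FPKM in NcoR1ΔHep and 143, 124 and 162 FPKM in flox libraries, with 0.53 (SE 0.35) on the log2 scale for all libraries and 0.054 without NcoR1ΔHep 1. Uqcrh, the hinge protein and the most abundant member of this complex per length, had 398, 320.0 and 249.7 FPKM in NcoR1ΔHep and 325, 279 and 362 FPKM in flox libraries, which overlapped throughout. The nuclear subunits that carry redox centres had log2 fold changes smaller than their SE. The Rieske protein gene Uqcrfs1 had a value of 0.15 (SE 0.21) on the log2 scale, 0.047 without NcoR1ΔHep 1, and Cyc1, cytochrome c1, one of 0.025 (SE 0.20), 0.0095 without it. Uqcrc2, a core structural subunit, had 118, 123 and 111 FPKM in NcoR1ΔHep and 155, 125 and 134 FPKM in flox libraries. Its groups did not overlap, and its log2 fold change was -0.20 (SE 0.19), or -0.13 without NcoR1ΔHep 1.

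Complex IV, cytochrome c oxidase, had 11 of 13 tested nuclear members above 0 and a median of 0.17. Without NcoR1ΔHep 1 the median was -0.0037, with 6 of 13 above 0. Ndufa4, the nuclear member with the highest mean FPKM of the whole chain, had 775, 664 and 650.0 FPKM in NcoR1ΔHep and 655, 619 and 714 FPKM in flox libraries, which overlapped closely. Cox7c had 767, 449 and 404 FPKM in NcoR1ΔHep and 387, 365 and 406 FPKM in flox libraries. NcoR1ΔHep 1 was the highest, and the log2 fold change (0.48, SE 0.25) became 0.23 without it. Cox5b had 457, 228 and 193 FPKM in NcoR1ΔHep and 214, 177 and 238 FPKM in flox libraries, and its log2 fold change (0.47, SE 0.31) became 0.093 without NcoR1ΔHep 1.

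Several complex IV subunits exist as isoforms of different tissues, and the liver libraries held the isoforms of the common type. Cox4i1 averaged 553 ± 170.2 FPKM in NcoR1ΔHep and 444 ± 53.9 FPKM in flox libraries (SD, n = 3 each), while Cox4i2, known from lung, had 30 counts in all 6 libraries together. Cox6a1 averaged 409 ± 165 FPKM in NcoR1ΔHep and 345 ± 32.7 FPKM in flox libraries, while the heart and muscle isoform Cox6a2 had 9 counts in all. Cox8a averaged 264 ± 102 FPKM in NcoR1ΔHep and 231 ± 32.1 FPKM in flox libraries, while the heart and muscle isoform Cox8b had 2 counts in all. These muscle-type forms were thus at or near 0. Cox6b1 averaged 489 ± 137 FPKM in NcoR1ΔHep and 435 ± 38.5 FPKM in flox libraries, while the testis isoform Cox6b2 had 37 counts in all. Cox7b averaged 216 ± 77.0 FPKM in NcoR1ΔHep and 197 ± 12.0 FPKM in flox libraries, while the testis isoform Cox7b2 had 0. Cox4i2, Cox6a2, Cox6b2, Cox7b2 and Cox8b, the 5 members with fewest counts, were not tested. Cox7a1, the heart and muscle isoform, was tested on 22 to 80 counts per library and had 1.74, 2.62 and 1.75 FPKM in NcoR1ΔHep and 4.58, 1.30 and 1.29 FPKM in flox libraries, where flox 1 was the highest. The liver isoform Cox7a2 averaged 191 ± 44.3 FPKM in NcoR1ΔHep and 191 ± 33.9 FPKM in flox libraries. Cox7a2l, which helps join complexes III and IV, averaged 56.5 ± 12.8 FPKM in NcoR1ΔHep and 65.0 ± 6.10 FPKM in flox libraries.

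ATP synthase had 14 of 17 members above 0 and a median of 0.22, which was 0.083 without NcoR1ΔHep 1, again with 14 of 17 above 0. Within the catalytic F1 head, the 2 large subunits Atp5a1 (-0.27) and Atp5b had negative log2 fold changes and Atp5c1 (0.078), Atp5d (0.31) and Atp5e positive ones. Without NcoR1ΔHep 1 Atp5a1 stood at -0.084, Atp5c1 at 0.083 and Atp5d at 0.048. Atp5b, the catalytic beta subunit, had 417, 614 and 412 FPKM in NcoR1ΔHep and 745, 577 and 614 FPKM in flox libraries, a log2 fold change of -0.40 (SE 0.25). Atp5e, the small epsilon subunit of the central stalk, had 802, 333 and 258 FPKM in NcoR1ΔHep and 275, 240.2 and 337 FPKM in flox libraries, a log2 fold change of 0.69 (SE 0.38). Without NcoR1ΔHep 1 the log2 fold change of Atp5b was -0.25 and that of Atp5e was 0.14. The Atp5e to Atp5b ratio was 1.92, 0.543 and 0.626 in NcoR1ΔHep and 0.369, 0.416 and 0.549 in flox libraries, and the groups overlapped by a narrow margin. Neither gene passed edgeR (adjusted p = 0.931 for both). The 4 peripheral stalk subunits had a median of 0.35 (0.12 without NcoR1ΔHep 1), and among them Atp5j, coupling factor 6, had 81.8, 43.7 and 53.7 FPKM in NcoR1ΔHep and 35.7, 41.6 and 45.9 FPKM in flox libraries. Its highest value was NcoR1ΔHep 1, and the log2 fold change (0.54, SE 0.28) became 0.34 without that library. Of the 3 genes that encode the same mature c-ring protein, Atp5g3 was the most abundant, with 311 ± 59.5 FPKM in NcoR1ΔHep and 292 ± 17.4 FPKM in flox libraries. Atp5g1 had 126 ± 51.4 FPKM in NcoR1ΔHep and 92.0 ± 16.1 FPKM in flox libraries. Atp5g2 had 87.1 ± 17.9 FPKM in NcoR1ΔHep and 88.6 ± 14.2 FPKM in flox libraries (SD, n = 3 each). Atp5j2, a membrane subunit, had 795, 428 and 338 FPKM in NcoR1ΔHep and 408, 364 and 461 FPKM in flox libraries, and its log2 fold change of 0.33 was -0.018 without NcoR1ΔHep 1.

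**Figure D2:**
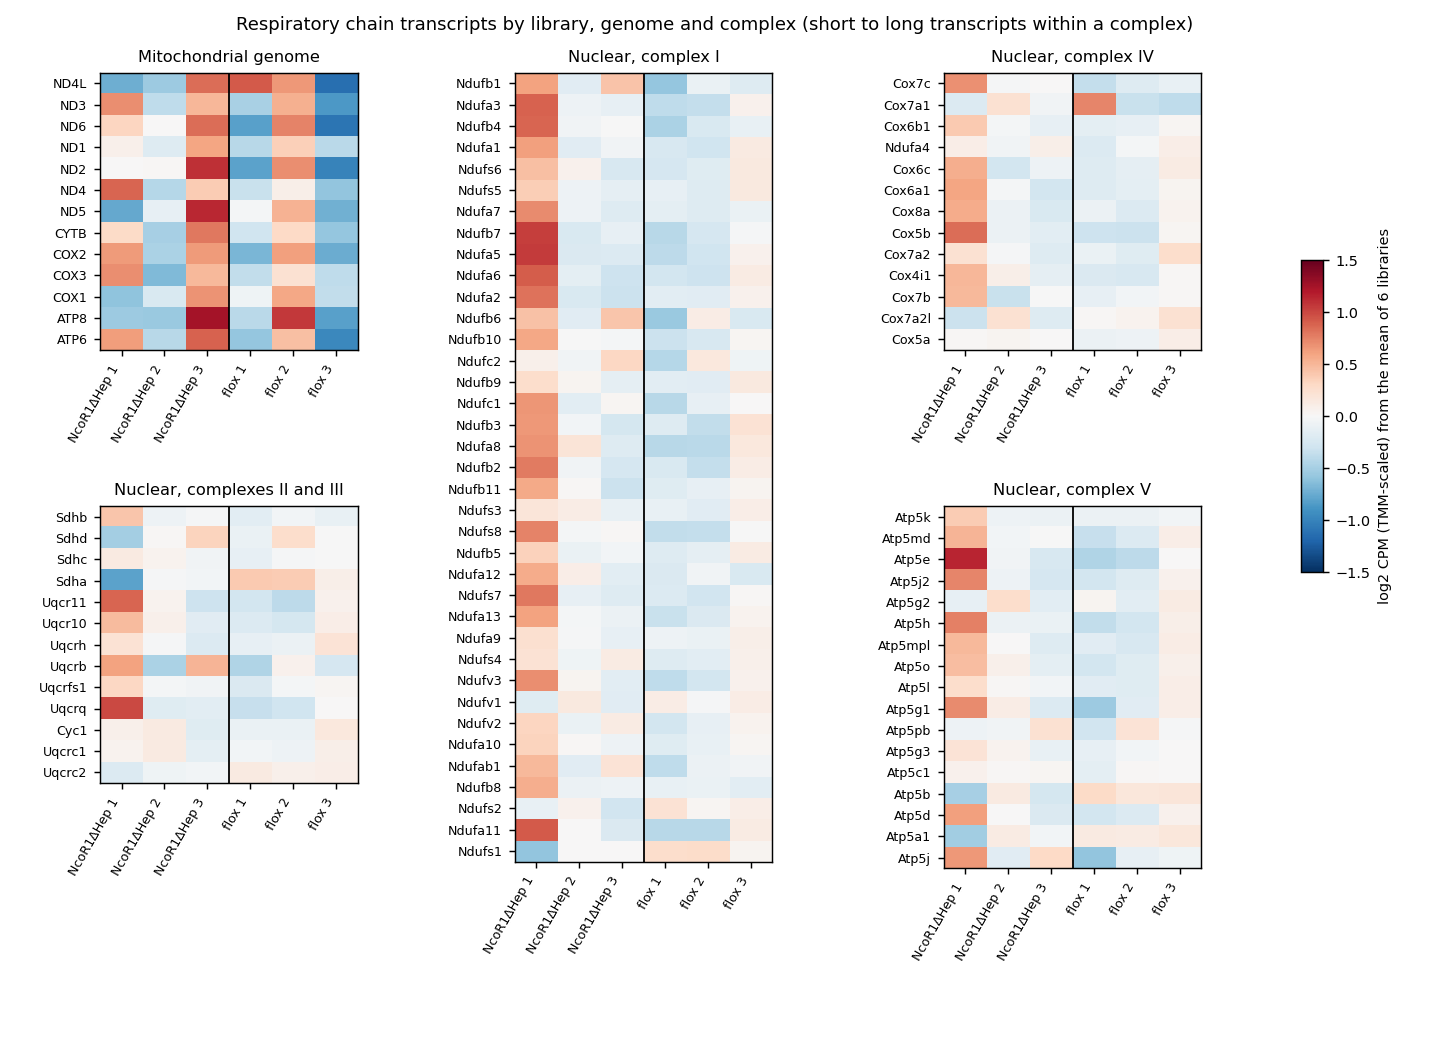
Each row is 1 tested member, ordered by complex and then from short to long, and each column is 1 library, NcoR1ΔHep left of the black line and flox right of it. Colour gives the TMM-scaled log2 CPM from that gene's mean over the 6 libraries, red above and blue below. The NcoR1ΔHep 1 column is red for most nuclear members, with Sdha, Ndufs1 and Atp5b blue, while the mitochondrial genes are mostly red in NcoR1ΔHep 3 and flox 2 and blue in flox 3.

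One library carried most of the nuclear members' difference. Of the 80 tested nuclear members, 67 had their highest normalised value in NcoR1ΔHep 1, as 33.8% of all tested genes did, and 4 their lowest, as 21.7% of all genes did. Relative to its mean over all 6 libraries, the average nuclear member stood at 0.40, -0.029 and -0.079 on the log2 scale in NcoR1ΔHep libraries and at -0.20, -0.14 and 0.042 in flox libraries. NcoR1ΔHep 2 and 3 thus lay inside the flox range. Gene length, as implied by count and FPKM, moved with the difference in this library, and length gradients stood in the others too. This length is not always that of an mRNA. It was 4137 bases for Atp5j and 2661 for Ndufa11, whose longest transcripts in GENCODE M21 have 927 and 918 bases. Relative to the mean of the other 5 libraries, the 26 nuclear members under 600 bases had a median log2 difference of 0.72 in NcoR1ΔHep 1, the 19 of 600 to under 1000 bases 0.60, the 25 of 1000 to under 2000 bases 0.29 and the 10 of 2000 bases and over 0.30. Other genes of at least 100 CPM had medians of 0.82 (29 genes), 0.59 (74), 0.13 (308) and -0.37 (809) in the same length classes. Across the 80 nuclear members, which share this library, Pearson's r of the difference with log2 length was -0.47, and across the 1220 other genes it was -0.30. In NcoR1ΔHep 2 and 3 the members' r was 0.20 and 0.11, and that of other genes -0.22 and 0.29. In flox 1, 2 and 3 the members' r was 0.29, 0.44 and 0.13, and that of other genes 0.29, 0.43 and -0.22. The mean set against each of these 5 libraries includes NcoR1ΔHep 1. The part of sex, of RNA quality or of library preparation in this was not tested.

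**Figure D3:**
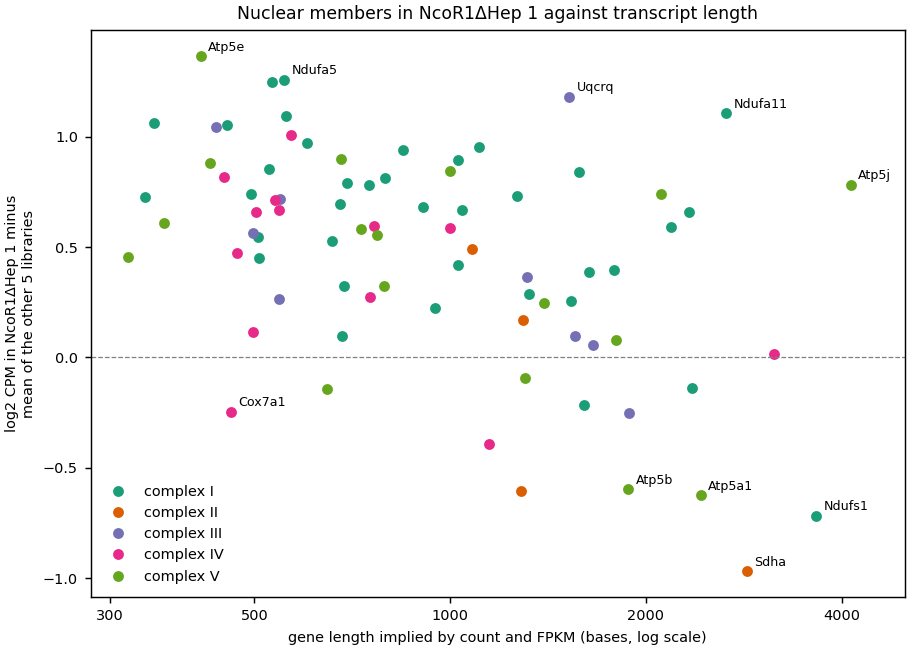
Each point is 1 of the 80 tested nuclear members, coloured by complex. The x axis is the gene length in bases implied by count and FPKM (log scale). The y axis is the log2 CPM in NcoR1ΔHep 1 minus the mean of the other 5 libraries. Members of short implied length such as Atp5e lie high, while those of longer implied length lie on both sides of 0. Ndufa11 (1.11) and Atp5j (0.78) lie above it and Sdha, Atp5a1, Atp5b and Ndufs1 below it. The longest annotated transcripts of Ndufa11 and Atp5j have only 918 and 927 bases.

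The same gradient stood in the comparison of the groups. The nuclear members' median log2 fold change was 0.32 under 600 bases, 0.27 from 600 to under 1000, 0.14 from 1000 to under 2000 and 0.16 at 2000 bases and over, against 0.40, 0.29, 0.12 and -0.090 in other genes of those lengths. Without NcoR1ΔHep 1 the members' medians were 0.027, 0.091, 0.054 and 0.054, against 0.12, 0.11, 0.091 and 0.028 in other genes. The other genes' medians thus still fell with length, over a narrower range, and the members' did not. Over all 80 nuclear members the median was 0.23 (quartiles 0.093 and 0.39, 69 above 0), and 0.062 without NcoR1ΔHep 1 (57 above 0). Shared letters were a smaller concern here than for the mitochondrial genes. Of 82 nuclear members with a transcript of the same symbol in GENCODE M21, 60 shared under 10% of their 50-base words with transcripts of other genes, and 0 shared over 50%. The highest share was 39.7%, in Ndufs3.

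The mitochondrial mRNAs varied more between libraries of 1 group than the groups differed. The 13 genes held 6.66%, 5.77% and 10.4% of all counts in NcoR1ΔHep libraries, against 6.16%, 8.80% and 4.50% in flox libraries (means 7.61% ± 2.46 and 6.49% ± 2.17, SD, n = 3 each). The highest was NcoR1ΔHep 3 and the lowest flox 3, and the groups overlapped. Of the 13, 11 had a log2 fold change above 0 and the median was 0.44 (quartiles 0.29 and 0.58). Leaving out 1 library moved that median between 0.16 (without NcoR1ΔHep 3) and 0.82 (without flox 2). It was 0.38 without NcoR1ΔHep 1, 0.73 without NcoR1ΔHep 2, 0.33 without flox 1 and 0.24 without flox 3. Among the 13 genes, 8 were highest in NcoR1ΔHep 3, 4 in NcoR1ΔHep 1 and 1 in flox 1, and 11 were lowest in flox 3.

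**Figure D4:**
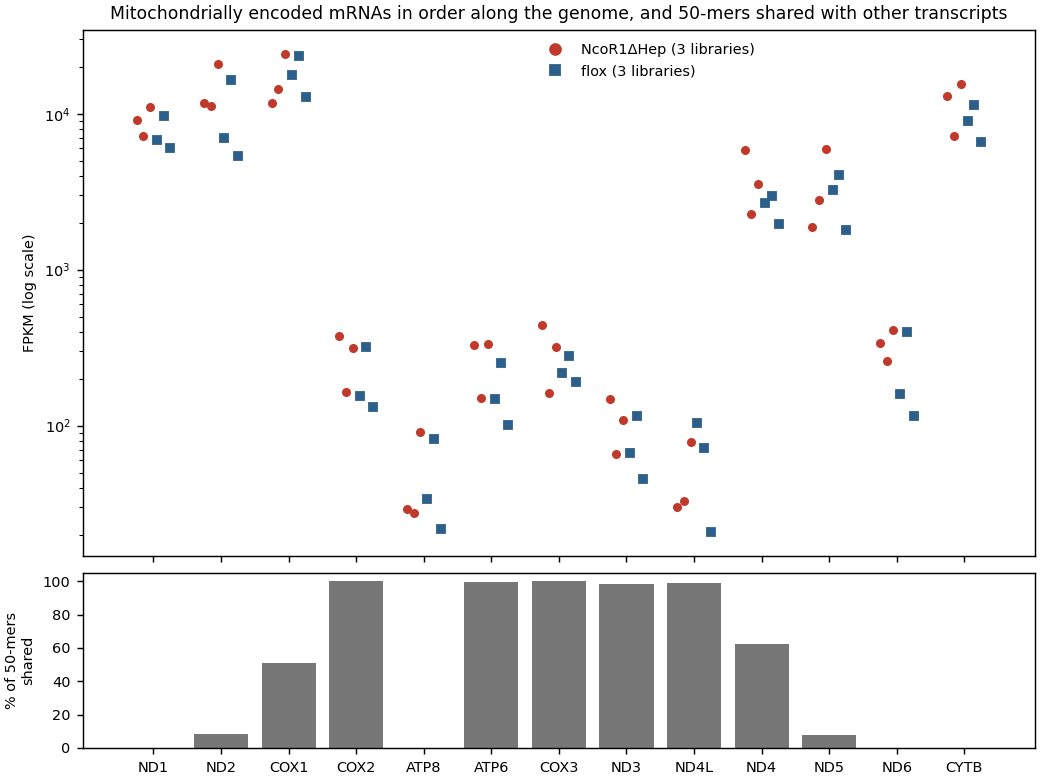
The upper panel gives the FPKM (log scale) of each mitochondrial gene in each library, with NcoR1ΔHep libraries as red circles and flox libraries as blue squares. The lower panel gives the percentage of each gene's 50-base words that also occur in annotated transcripts outside mitochondrial DNA. COX2, ATP6, COX3, ND3 and ND4L, at 98.0% to 100%, average 56.3 to 268 FPKM, while ATP8, whose stretch of chromosome 1 is unannotated and was not read, averages 47.5 FPKM.

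The highest levels per length were those of COX1, ND2 and CYTB. COX1, the catalytic subunit of complex IV, had 11789, 14429 and 24128 FPKM in NcoR1ΔHep and 17824, 23438 and 12808 FPKM in flox libraries, and the groups overlapped (log2 fold change -0.058, SE 0.44, and 0.20 without NcoR1ΔHep 1). ND2, a proton-pumping subunit of complex I, had 11721, 11202 and 20959 FPKM in NcoR1ΔHep and 6965, 16479 and 5352 FPKM in flox libraries. CYTB, the mitochondrial subunit of complex III, had 13028, 7171 and 15540.1 FPKM in NcoR1ΔHep and 8987, 11430.1 and 6559 FPKM in flox libraries. In ND2 and CYTB, flox 3 was the lowest and NcoR1ΔHep 3 the highest, and the groups overlapped. Their log2 fold changes were 0.62 (SE 0.54) and 0.44 (SE 0.41), and 0.83 and 0.45 without NcoR1ΔHep 1. ND1 had 9159.6, 7185 and 11022 FPKM in NcoR1ΔHep and 6756, 9679 and 6018 FPKM in flox libraries. ND5 had 1881, 2780.2 and 5924 FPKM in NcoR1ΔHep and 3254, 4021 and 1788 FPKM in flox libraries. ND4 had 5879, 2267 and 3533 FPKM in NcoR1ΔHep and 2660.2, 2976 and 1967 FPKM in flox libraries. Of these core subunits of complex I, ND4 was highest in NcoR1ΔHep 1 and the others in NcoR1ΔHep 3. ND6, the 1 gene read from the light strand, had 339, 259 and 410.1 FPKM in NcoR1ΔHep and 159.8, 396 and 116 FPKM in flox libraries (log2 fold change 0.58, SE 0.49, and 0.65 without NcoR1ΔHep 1). By mean FPKM over all 6 libraries the order ran from COX1 (17403) through ND2 (12113), CYTB (10452), ND1 (8303), ND5 (3275) and ND4 (3214) to ND6 (279.9), and the ranges of neighbours in this order overlapped except between ND1 and ND5 and between ND4 and ND6.

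Of the mitochondrial mRNAs at low levels, 5 matched nuclear copies over nearly their whole length. COX2, COX3, ATP6, ND3 and ND4L shared 98.0% to 100% of their 50-base words with annotated transcripts outside mitochondrial DNA, and their means lay between 56.3 and 268 FPKM. ND1, CYTB and ND6 shared 0%, ND5 7.61% and ND2 8.19%, while COX1 shared 51.1% and ND4 62.2%. ATP8 averaged 47.5 FPKM. It shared 0% with annotated transcripts, but the stretch of chromosome 1 between the copies of ATP6 and COX2, where a copy of ATP8 would lie, is unannotated and was not read here, so a nuclear copy of ATP8 was not tested. ATP8 is the shortest of the 13 at 204 bases, and 43 of those overlap ATP6. How reads with several places were counted is not given in the sources used here, the part of shared reads in these levels was not tested, and the copies' own values are not analysed here. The values of the 5 genes matched over nearly their whole length are therefore uncertain. So, for the shared part of their length, are those of COX1 and ND4. COX2 had 374, 163 and 316 FPKM in NcoR1ΔHep and 155, 321 and 131 FPKM in flox libraries. COX3 had 439, 162 and 319.8 FPKM in NcoR1ΔHep and 218, 278 and 191 FPKM in flox libraries. ATP6 had 329.5, 151 and 332 FPKM in NcoR1ΔHep and 148, 254 and 100.3 FPKM in flox libraries, the largest log2 fold change of the 13 (0.71, SE 0.45, edgeR adjusted p = 0.931), which was 0.64 without NcoR1ΔHep 1. COX2 and ATP6 were lowest in flox 3 and COX3 in NcoR1ΔHep 2, and the groups overlapped in all 3. ND3 had 148, 65.5 and 108 FPKM in NcoR1ΔHep and 66.4, 115 and 45.2 FPKM in flox libraries. ND4L had 30.3, 32.9 and 78.9 FPKM in NcoR1ΔHep and 103, 71.7 and 20.9 FPKM in flox libraries. ATP8 had 29.3, 27.3 and 90.8 FPKM in NcoR1ΔHep and 33.7, 82.2 and 21.9 FPKM in flox libraries. ND4L, alone with COX1, had a negative log2 fold change (-0.36, SE 0.59, and -0.071 without NcoR1ΔHep 1), and all 13 had an adjusted p of 0.931 or more with edgeR.

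Ratios within a library do not depend on the scaling between libraries. COX1, the denominator here, shared 51.1% of its 50-base words with annotated transcripts outside mitochondrial DNA. The part of shared reads in the ratios was not tested. The ND2 to COX1 ratio in FPKM was 0.994, 0.776 and 0.869 in NcoR1ΔHep and 0.391, 0.703 and 0.418 in flox libraries. The ND6 to COX1 ratio was 0.0288, 0.0179 and 0.0170 in NcoR1ΔHep and 0.00896, 0.0169 and 0.00906 in flox libraries. Both ratios were higher in every NcoR1ΔHep than in every flox library, by a narrow margin against flox 2, and these were chosen from 12 ratios after their values were seen. With 3 libraries a group, an exact permutation test of such a value cannot give a two-sided p under 0.1. The CYTB to COX1 ratio was 1.11, 0.497 and 0.644 in NcoR1ΔHep and 0.504, 0.488 and 0.512 in flox libraries, and the ND4 to COX1 ratio was 0.499, 0.157 and 0.146 in NcoR1ΔHep and 0.149, 0.127 and 0.154 in flox libraries. In both, NcoR1ΔHep 1 stood above the other 5 libraries and the groups overlapped.

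The balance between the genomes followed single libraries too. Nuclear members held 1.72%, 1.33% and 1.13% of all counts in NcoR1ΔHep libraries and 1.36%, 1.19% and 1.36% in flox libraries. The ratio of mitochondrial to nuclear member counts was 3.87, 4.33 and 9.18 in NcoR1ΔHep (5.79 ± 2.94) and 4.53, 7.39 and 3.31 in flox libraries (5.08 ± 2.09, SD, n = 3 each). The highest ratios were in NcoR1ΔHep 3 and flox 2, libraries of opposite groups. With ND1, ND2, ND5, ND6 and CYTB alone, a choice added after the data were seen, the ratio was 2.29, 2.39 and 5.39 in NcoR1ΔHep and 2.20, 3.95 and 1.63 in flox libraries, with the same 2 libraries highest.

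**Figure D5:**
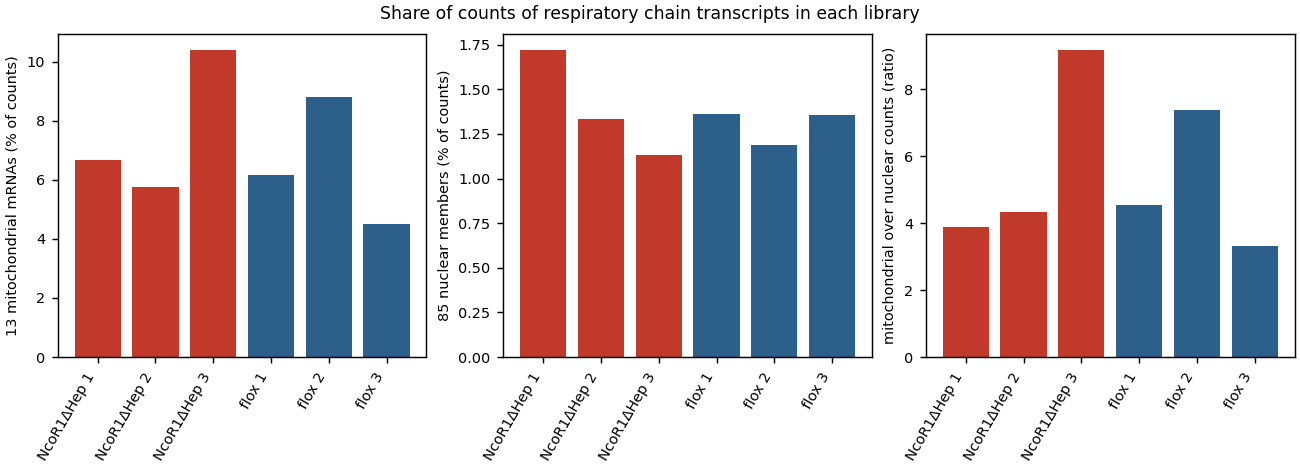
Bars give, for each library, the percentage of counts in the 13 mitochondrial genes, the percentage in the 85 nuclear members, and the ratio of mitochondrial over nuclear counts, with NcoR1ΔHep in red and flox in blue. The ratio is highest in NcoR1ΔHep 3 (9.18) and flox 2 (7.39).

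Genes that build and feed the chain were read from 9 lists, and 0 of their genes passed edgeR or DESeq2 at an adjusted p of 0.05. Of 18 complex I assembly factors 14 had a log2 fold change above 0 (median 0.11), led by Ndufaf4, with 12.7, 10.6 and 21.1 FPKM in NcoR1ΔHep and 7.52, 10.6 and 9.81 FPKM in flox libraries (0.70, SE 0.35, and 0.88 without NcoR1ΔHep 1). Of 22 complex IV assembly genes 15 were above 0 (median 0.18), of 10 for complexes II and III 7 (median 0.12), and of 9 for ATP synthase assembly and control 6 (median 0.064). The ATP synthase list is not separate from the members above: its highest gene, Atp5md (0.32), is itself a nuclear member. Uqcc2, a complex III assembly factor, had 66.9, 28.1 and 25.9 FPKM in NcoR1ΔHep and 25.4, 22.3 and 27.7 FPKM in flox libraries, with NcoR1ΔHep 1 alone high (0.67, and 0.20 without it). The upkeep and transcription of mitochondrial DNA had 10 of 17 genes above 0 (median 0.067), and mitochondrial RNA processing had 13 of 20 (median 0.084). Without NcoR1ΔHep 1 the medians of the 4 assembly lists were 0.096, 0.083, 0.097 and 0.10 in the same order, that of mitochondrial DNA upkeep 0.072 and that of RNA processing 0.13. Among the RNA processing genes Lrpprc, which stabilises mitochondrial mRNAs, had 15.8, 22.0 and 19.3 FPKM in NcoR1ΔHep and 28.2, 22.6 and 24.9 FPKM in flox libraries. Its groups did not overlap, and its log2 fold change was -0.37 (SE 0.22), or -0.19 without NcoR1ΔHep 1.

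The carriers and the cycle next to the chain had medians below 0. Of 15 genes for coenzyme Q synthesis and cytochrome c 6 were above 0 (median -0.088, and -0.030 without NcoR1ΔHep 1), and of 14 TCA cycle genes 3 were (median -0.17, and -0.14 without that library). Coq10b, a coenzyme Q binding protein needed for respiration, had 57.3, 53.9 and 46.2 FPKM in NcoR1ΔHep and 12.8, 13.7 and 41.7 FPKM in flox libraries. Every NcoR1ΔHep value lay above every flox value, flox 3 came close, and the log2 fold change of 1.21 (SE 0.46) had an unadjusted p of 0.0304 and an adjusted p of 0.931 with edgeR. It was 1.22 without NcoR1ΔHep 1 and 3 of 3 NcoR1ΔHep libraries showed its direction. Idh3a, the catalytic subunit of the NAD-dependent isocitrate dehydrogenase, had 22.5, 17.2 and 21.8 FPKM in NcoR1ΔHep and 16.8, 12.6 and 15.3 FPKM in flox libraries (0.49, SE 0.21, edgeR adjusted p = 0.931, and 0.50 without NcoR1ΔHep 1), against the direction of its list. Dlst, a subunit of the 2-oxoglutarate dehydrogenase complex, had 44.2, 61.8 and 51.1 FPKM in NcoR1ΔHep and 83.0, 64.2 and 63.3 FPKM in flox libraries, a log2 fold change of -0.39 (SE 0.22) and -0.22 without NcoR1ΔHep 1. Of 16 transcriptional regulators of respiration 10 were above 0 (median 0.062, and 0.051 without that library). Ppargc1b, a coactivator of such genes, had 0.754, 0.668 and 0.888 FPKM in NcoR1ΔHep and 0.293, 0.517 and 0.597 FPKM in flox libraries, a log2 fold change of 0.72 (SE 0.35, edgeR adjusted p = 0.931) and 0.82 without NcoR1ΔHep 1. Gabpb2, a partner subunit of GABP, had 0.976, 0.619 and 0.852 FPKM in NcoR1ΔHep and 1.76, 1.22 and 0.931 FPKM in flox libraries, a log2 fold change of -0.64 (SE 0.27) and -0.70 without NcoR1ΔHep 1. The groups did not overlap in Ppargc1b and overlapped in Gabpb2, both at low levels.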

How the data were processed

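The authors deposited a table of whole-number read counts per gene symbol, without normalization, and a table of FPKM values for the same 6 libraries. Dividing count by FPKM and library total gave a whole number of bases, within 0.01, for 99.99% of the 12656 genes checked (at least 20 counts), so each deposited FPKM value was a count divided by gene length and library total. Builds listed in the submitters' processing notes are GRCm38, mm10 and hg38, with no role given; the choice of aligner, counter and strand mode is not given in the sources used here. RNA was purified on Qiagen columns and made into libraries with a SMARTer kit, per the labels' protocols.

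NcoR1ΔHep (3 libraries) was compared with flox (3) by edgeR's two-sided quasi-likelihood test (edgeR 4.0.16, R 4.3.3) with TMM factors, after filterByExpr (minimum count 10, minimum total 15), which kept 13205 genes with 99.95% of the counts. Benjamini-Hochberg adjustment ran over all genes tested, with a threshold of 0.05. Totals of 36975231 to 38470468 counts per library limit the precision of low genes. Alternatives were DESeq2 1.42.0, limma 3.58.1 (voom, and trend on log2 FPKM), other scalings and filters, a replicate block and each library left out. The edgeR fit was tested on simulated counts. Mitochondrial genes and nuclear members were cut into 50-base words and looked up in GENCODE M21 transcripts, and copies were aligned with Biopython 1.88; promoters came from RefSeq on GRCm38.p6. A longer form of the NRF1 motif was searched first and replaced by its core after its counts were seen.

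The members and lists were chosen with earlier results of these data known. Genes named are all 13 mitochondrial genes, for each complex the 2 nuclear members with the highest mean FPKM and the 2 with the smallest p, the isoform families, Ncor1, and up to 2 genes with the smallest p of each further list. Ndufs1, Ndufs7, Uqcrc2, Uqcrfs1, Cyc1, Atp5a1, Atp5c1 and Atp5d were named after their values were seen. The ratios of Ndufs7 to Ndufs1, Sdhb to Sdha and Atp5e to Atp5b were not among the planned measures.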

Additional observations from a re-analysis of the deposited data

How the results depend on the processing

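Of 190 recomputed summary values, 188 stayed within the limits set for them: within 1 SD between libraries for medians and shares, and within 1.5 times for counts of calls. DESeq2 called 5 genes against 0 with edgeR, none of them a member, and the median log2 fold change of nuclear complex I was 0.0711 without NcoR1ΔHep 1, against 0.35. Leaving out 1 library moved it between 0.0711 and 0.44. The SD includes NcoR1ΔHep 1 itself and is wide (0.205 for nuclear members), so values within the limits could still move far or change sign. Without NcoR1ΔHep 1 the nuclear median went from 0.23 to 0.062 and that of complex IV from 0.17 to -0.0037. Without NcoR1ΔHep 3 the log2 difference between groups in the mitochondrial to nuclear ratio went from 0.16 to -0.23. Members called were 0 under every setting run. At an unadjusted p under 0.05 stood 6 members without NcoR1ΔHep 2, 5 without flox 2 (all mitochondrial) and 2 without NcoR1ΔHep 3. Each other setting had 0 or 1. The share of all genes in those 3 fits is not given here, so these counts cannot be read against it. Of gene values, 38 changed sign, all from small log2 fold changes or when 1 library was left out. Uqcrh was -0.0152 in the limma fits on log2(FPKM + 1) and -0.0153 with a pseudocount of 0.1, and Cox7a2 was -0.00885 with a pseudocount of 1 (with and without the filter) and -0.00895 with 0.1. Cox7a1 was 0.00194 with voom, 0.0368 with the replicate block and 0.00667 with a pseudocount of 0.1. Atp5g2 was 0.01004 with RLE factors, 0.0303 with upper-quartile factors, 0.00922 without a filter, 0.00366 with a CPM filter and 0.00483 with DESeq2. Leaving out 1 library at a time gave ranges of -0.79 to 0.97 for ATP8, -0.52 to 0.25 for COX1, -1.07 to 0.029 for ND4L and -0.43 to 0.64 for ND5. The ranges were -0.066 to 0.61 for Ndufa6, -0.091 to 0.12 for Uqcrh, -0.018 to 0.50 for Atp5j2, -0.035 to 0.40 for Cox6a1 and -0.43 to 0.61 for Cox7a1. They were -0.092 to 0.15 for Cox7a2, -0.095 to 0.31 for Cox7b, -0.064 to 0.34 for Cox8a and -0.15 to 0.074 for Atp5g2. The cause was not tested. The labels do not say whether replicate numbers pair the libraries. Deviations from the group means correlated at 0.025, -0.38 and -0.52 for numbers 1, 2 and 3. Deviations sum to 0 within a group, so these correlations constrain one another and cannot decide whether libraries of 1 number belong together. Across different numbers the correlations ran from -0.27 (NcoR1ΔHep 1 with flox 2) to 0.63 (NcoR1ΔHep 3 with flox 2). With the replicate block 0 genes were called, as without it. With 3 libraries a group, differences of the size seen in most members could not be told from the spread.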

Other observations

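A few nuclear members, picked after their values were seen, had a higher FPKM in NcoR1ΔHep 3 than in every flox library. Ndufb6, an accessory subunit of complex I, had 185, 114 and 153 FPKM in NcoR1ΔHep and 96.0, 128 and 107 FPKM in flox libraries. Its log2 fold change was 0.46 (SE 0.27) and 0.37 without NcoR1ΔHep 1, and the groups overlapped through flox 2. Ndufc2, also an accessory subunit of complex I, had 159, 136 and 157 FPKM in NcoR1ΔHep and 115, 146 and 132 FPKM in flox libraries, and Sdhd, a membrane anchor of complex II, had 111, 150.2 and 167 FPKM in NcoR1ΔHep and 152, 164 and 144 FPKM in flox libraries. In NcoR1ΔHep 1, Ndufb6 and Ndufc2 had their highest FPKM and Sdhd its lowest. Mitochondrial mRNAs were also highest in NcoR1ΔHep 3 for 8 of 13 genes.

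Among genes outside the chain, Mterf1b, a mitochondrial transcription termination factor, had 0.247, 0.0878 and 0.155 FPKM in NcoR1ΔHep and 0.0812, 0.0852 and 0.0365 FPKM in flox libraries, close to the detection limit. Mterf3, which restrains mitochondrial transcription in mice, had 4.02, 2.997 and 4.97 FPKM in NcoR1ΔHep and 2.80, 3.24 and 3.02 FPKM in flox libraries, with a log2 fold change of 0.43 (SE 0.27; 0.51 without NcoR1ΔHep 1) that did not pass edgeR (adjusted p = 0.931).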
